A study of Mus musculus with 8 samples.

Results

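The genes described here carry out antigen presentation by the major histocompatibility complex (MHC) class II. They are Cd74, H2-Aa, H2-Ab1, H2-Eb1, H2-DMa, H2-DMb1 and Ciita, 7 genes with 9 probes among the 55681 probes of an Agilent mouse array. Members were taken as every probe whose gene name on the array is one of these symbols. Of the 9 probes, 7 were well above background in nerve RNA on at least 4 of the 8 arrays, as were 19838 of all probes. Those 7 represent 6 of the 7 genes among 15343 genes measured, and the Ciita probe did not pass.

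Sciatic nerve RNA came from 4 SOD1G93A transgenic mice and 4 wild-type (WT) mice, all male and 60 days old. SOD1G93A mice carry a mutant human SOD1 gene and are a model of amyotrophic lateral sclerosis; the study's title calls them presymptomatic. On every array the nerve RNA carried Cy3, while Cy5 carried a common pool of RNA from 3 neonatal organs, the heart, the liver and the kidney, taken from SOD1G93A and WT animals together. The labels give neither the mouse strain nor the promoter of the transgene, and they call the arrays of a genotype biological replicates without saying whether nerves were pooled.

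MHC class II molecules are surface receptors with an alpha and a beta chain that show peptides from engulfed material to CD4+ T cells. H2-Aa and H2-Ab1 encode the chains of the A molecule, and H2-Eb1 encodes the beta chain of the E molecule. The invariant chain Cd74 guards the groove of a newly made molecule, and the H2-DMa and H2-DMb1 proteins together exchange its last fragment for a peptide in the endosome. Ciita is the coactivator that switches these genes on, through proteins bound to X and Y boxes in their promoters. In peripheral nerve, class II is known mainly from resident macrophages, and Schwann cells can make it when inflamed.

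Probe positions are given on mm9, the mouse build named in the files, and no gene annotation of that build was used. The H2 genes lie in the MHC on chromosome 17, with H2-Aa at chr17:34421285-34421344 (-) and H2-Eb1 at chr17:34453075-34453134 (+). The DM genes were read at chr17:34274300-34274863 (+) for H2-DMa and chr17:34297109-34297168 (+) for H2-DMb1. H2-Ab1 had 2 probes, at chr17:34406296-34406355 (+) and chr17:34406305-34406363 (+). These overlap by 51 bases with 1 mismatch, T51C, counted from the 5′ end of the first probe. They are shown because H2-Ab1 is the only measured member read by 2 bright probes, and the capital marks the base at which they differ.
A_55_P1962747: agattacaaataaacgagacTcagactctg
A_55_P2146560: agattacaaataaacgagacCcagactctg
Both gave nearly the same values, differing by at most 0.20 on the log2 scale on any array. The brighter probe, A_55_P1962747, stands for the gene below.

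The 2 remaining probes were not well above background in either dye on any array. The Ciita probe, A_55_P2179074, lies at chr16:10526568-10526627 (+). It is rich in a simple repeat: its 60 bases hold the unit AAAAC 8 times and are 65.0% A. Whether it reads Ciita alone was not tested. The second H2-DMb1 probe, at chr17:34290109-34290168 (+), matched the start of the gene rather than its body. It covered 27 bases before the RefSeq transcript start and 33 bases from it on, with 2 mismatches to the RefSeq reference of build GRCm38.p6. The mismatches were G17A and T46A, the RefSeq base first, counted from the 5′ end of the probe. Bases 17 to 46 are shown with the mismatches in capitals, the RefSeq stretch being chr17:34153180-34153209 (+).
A_55_P1972989: AggatttggttgagttactgggtacaagtA
H2-DMb1 start, RefSeq: GggatttggttgagttactgggtacaagtT
The ratios of these 2 probes, given below, come from signal not well above background. They do not show whether Ciita RNA was present.

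RefSeq promoter windows of build GRCm38.p6, 250 bases before to 50 bases after the transcript start, were found for 4 of the 7 genes. Stretches of 3 of them are shown because they hold letters like the X, X2 and Y boxes, in capitals, through which these genes are known to be switched on together.
H2-Eb1, chr17:34305761-34305820 (+): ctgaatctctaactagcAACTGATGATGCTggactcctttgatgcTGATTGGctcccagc
H2-DMb1, chr17:34153083-34153142 (+): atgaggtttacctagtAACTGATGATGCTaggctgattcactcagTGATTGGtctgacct
H2-Aa, chr17:34287859-34287918 (-): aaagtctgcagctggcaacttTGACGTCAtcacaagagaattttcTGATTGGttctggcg
The motifs were chosen after these letters were read, and were searched on both strands; no marked match overlaps another. AACTGATGATGCT, the longest stretch shared by the H2-Eb1 and H2-DMb1 windows and like an X box, was in 3 of 32851 windows (0.00913%). The Y-like motif TGATTGG was in 2568 (7.82%), and H2-Eb1 and H2-DMb1 were the 2 windows with both (0.00609%). The X2-like motif TGACGTCA was in 588 windows (1.79%), and in 50 windows (0.152%), H2-Aa among them, it stood with TGATTGG. The stretch between the marked motifs was 15 bases in H2-Eb1, 16 in H2-DMb1 and 16 in H2-Aa. The 2 windows of H2-DMa held none of these letters. A match is a description of letters and not evidence of binding.

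On each array 35.5% to 41.7% of 59305 spots were well above background in Cy3, and 0 were saturated. The arrays shared 1 slide and 1 scan date, and the slide position row coincided with genotype, so that position and genotype cannot be told apart. Myelin and Schwann cell markers were high in both genotypes, with a median log2 ratio to the pool of 4.51 in SOD1G93A and 4.38 in WT nerves over 7 genes. The mouse Sod1 probe gave -0.04 ± 0.09 in SOD1G93A and 0.12 ± 0.21 in WT nerves (log2 ratio, SD, n = 4 each). Its binding to the human transcript is not known here, so the genotypes were not checked by it. SOD1G93A replicate 1 stood apart: its Schwann markers deviated by 0.61 from their mean over arrays, and its heart, liver and kidney markers by 0.37, 0.36 and 0.58, the highest of the 8 arrays in each. The liver and kidney values rest on 1 measured gene each, Alb and Cdh16. Cdh16 was well above background in nerve on only 3 arrays of each genotype. Over all genes, 25 of 15343 (0.163%) were called between genotypes at an adjusted p under 0.05 with limma.

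The first question was how nerve compares with the neonatal pool. All values that follow are log2 ratios of nerve to pool, in which 0 means equal signal, and errors of means are SD with n = 4. All 6 measured class II genes stood well above the pool on every array of both genotypes. Their lowest value was 1.92, for Cd74 on a SOD1G93A array, and their highest was 4.15, for H2-DMa on a WT array. Each of the 6 was called higher than the pool in SOD1G93A nerves and in WT nerves (limma, adjusted p at most 1.11e-06 in SOD1G93A and 6.92e-07 in WT). Of all genes, 42.1% were called higher in SOD1G93A nerve, 42.7% in WT nerve and 38.6% in both. The median over the 6 was 2.72 in SOD1G93A and 2.88 in WT nerves, against 0.07 and 0.08 over all genes.

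In fold terms the invariant chain Cd74 stood 4.70-fold above the pool in SOD1G93A nerve and 5.78-fold in WT nerve. H2-DMa, the DM alpha chain, stood 11.4-fold above it in SOD1G93A nerve and 9.69-fold in WT nerve. The ratios of the 6 genes were larger than those of 96.7% to 99.1% of all genes in SOD1G93A nerve and 97.5% to 98.9% in WT nerve. Background-subtracted pool intensity was only 58.2 to 98.3 for H2-DMa and 29.1 to 51.0 for H2-Aa. These are near the offset of 50 used in background correction, so the size of these 2 genes' folds depends on that offset. There was 1 pool and no dye swap, so tissue, age, pool and dye cannot be told apart in these ratios. Nor can more cells with class II RNA be told apart from more RNA per cell in bulk nerve.

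**Figure D1:**
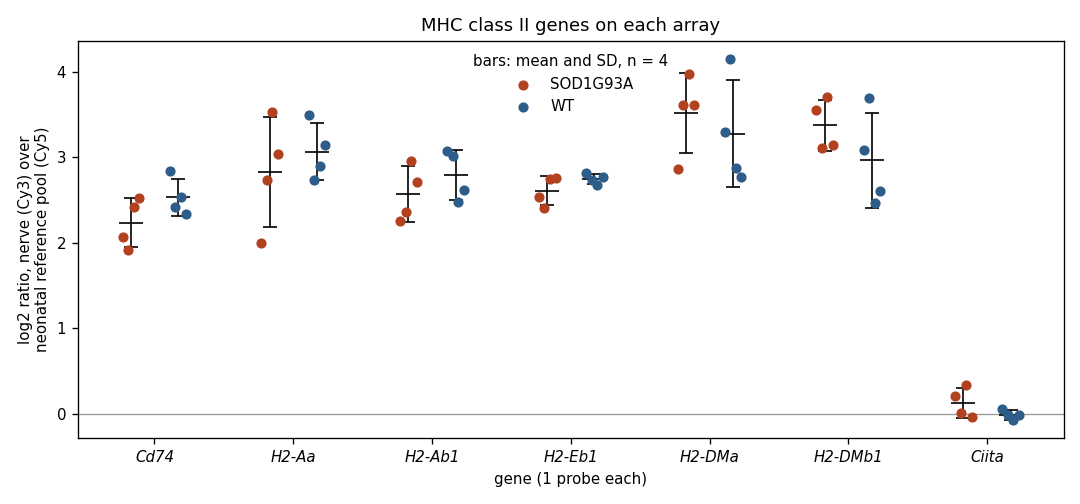
Log2 ratio of nerve (Cy3) to the neonatal pool (Cy5) for each member on each array, SOD1G93A in red and WT in blue, with mean and SD (n = 4). The 6 measured genes lie between 1.92 and 4.15 and their groups overlap, while Ciita, not well above background on any array, lies near 0.

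The main comparison set SOD1G93A nerves against WT nerves. Of the 6 measured class II genes, 0 passed the limma test at an adjusted p under 0.05, beside 0.163% of all genes, and 0 had an unadjusted p under 0.05, beside 1749 of 15343 genes. The 4 genes for the invariant chain and the A and E chains had a lower mean in SOD1G93A nerve, and the 2 DM genes had a higher one. The median difference of the 6, SOD1G93A minus WT, was -0.18 on the log2 scale, beside -0.02 over all genes, of which 54.7% were lower. In 0 of the 6 genes did the groups lie apart, as they did in 7.97% of all genes. Without SOD1G93A replicate 1 the differences were -0.24 for Cd74, 0.035 for H2-Aa, -0.12 for H2-Ab1, -0.11 for H2-Eb1, 0.46 for H2-DMa and 0.35 for H2-DMb1, with a median of -0.039 and 0 called.

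Cd74, the invariant chain, was read by a probe at chr18:60972075-60972132 (+). It had log2 ratios of 2.07, 1.92, 2.42 and 2.52 in SOD1G93A nerves, against 2.84, 2.42, 2.54 and 2.33 in WT nerves. The lowest values were on 2 SOD1G93A arrays and the highest on WT replicate 1, and the others overlapped. Its mean was 2.23 ± 0.29 in SOD1G93A and 2.53 ± 0.22 in WT nerves. The difference was -0.30 ± 0.16 (SE, limma adjusted p = 0.514), with a 95% interval of -0.66 to 0.06. Without WT replicate 1 the difference was -0.20, and without SOD1G93A replicate 2 it was -0.19.

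H2-Aa, the alpha chain of the A molecule, had log2 ratios of 2.00, 2.74, 3.53 and 3.03 in SOD1G93A nerves, against 3.49, 2.73, 2.90 and 3.14 in WT nerves. The SOD1G93A arrays held both the lowest and the highest value, so the WT range lay inside theirs. The means were 2.83 ± 0.64 in SOD1G93A and 3.07 ± 0.33 in WT nerves, a difference of -0.24 ± 0.30 (SE, limma adjusted p = 0.784). Its sign rested on SOD1G93A replicate 1, the array that stood apart in Schwann and organ markers, without which the difference was 0.035, and without WT replicate 1 it was -0.10.

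H2-Ab1, the beta chain of the same molecule, had log2 ratios of 2.25, 2.36, 2.95 and 2.72 in SOD1G93A nerves, against 3.08, 3.01, 2.48 and 2.62 in WT nerves. Replicates 1 and 2 were low in SOD1G93A and high in WT, while replicates 3 and 4 were in the opposite order. No pairing of the animals by number was seen. The difference was -0.23 ± 0.19 (SE, limma adjusted p = 0.673) between means of 2.57 ± 0.32 in SOD1G93A and 2.80 ± 0.29 in WT nerves. The second probe gave means of 2.63 ± 0.37 in SOD1G93A and 2.85 ± 0.16 in WT nerves and a difference of -0.22 ± 0.18 (SE). With the nerve channel alone the H2-Ab1 difference was -0.38, and with array weights it was -0.015. It was -0.12 without SOD1G93A replicate 1, -0.13 without WT replicate 1 and -0.35 without SOD1G93A replicate 3.

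H2-Eb1, the E beta chain, had log2 ratios of 2.54, 2.41, 2.74 and 2.76 in SOD1G93A nerves, against 2.82, 2.73, 2.67 and 2.78 in WT nerves. WT values lay close together, and 2 SOD1G93A values fell inside their range. This was the most even member in log2 ratio: its SD within genotypes, 0.13, was larger than that of 30.7% of all genes. Its means were 2.61 ± 0.17 in SOD1G93A and 2.75 ± 0.06 in WT nerves, a difference of -0.14 ± 0.10 (SE, limma adjusted p = 0.615) with a 95% interval of -0.35 to 0.08. In the nerve channel alone its difference was -0.38, and without SOD1G93A replicate 2 it was -0.07.

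H2-DMa had log2 ratios of 2.86, 3.62, 3.98 and 3.61 in SOD1G93A nerves, against 3.30, 4.15, 2.88 and 2.77 in WT nerves. WT replicate 2 was the highest array of all and 2 other WT arrays were among the lowest. The means were 3.52 ± 0.47 in SOD1G93A and 3.28 ± 0.63 in WT nerves, and the difference of 0.24 ± 0.32 (SE, limma adjusted p = 0.801) was smaller than the spread between replicates. It was 0.53 without WT replicate 2, 0.46 without SOD1G93A replicate 1, 0.07 without WT replicate 4, 0.11 without WT replicate 3 and 0.09 without SOD1G93A replicate 3. With the nerve channel alone it was 0.46 and with array weights 0.52.

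H2-DMb1, its partner chain, had log2 ratios of 3.55, 3.11, 3.70 and 3.14 in SOD1G93A nerves, against 3.08, 3.69, 2.47 and 2.61 in WT nerves. All SOD1G93A values lay above 3 of the 4 WT values, and WT replicate 2 lay among the highest. The difference, the largest among the members, was 0.41 ± 0.26 (SE, limma adjusted p = 0.577) between means of 3.38 ± 0.30 in SOD1G93A and 2.96 ± 0.55 in WT nerves. Its 95% interval was -0.17 to 1.00. Without WT replicate 2 the difference was 0.65 (limma adjusted p = 0.393), and without WT replicate 3 it was 0.25.

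The repeat-rich probe of Ciita, the coactivator, gave log2 ratios between -0.03 and 0.34 in SOD1G93A nerves. In WT nerves they lay between -0.07 and 0.06, and all came from signal not well above background. The dim H2-DMb1 probe lay between -0.16 and 0.14 in SOD1G93A and between -0.10 and 0.17 in WT nerves, while the bright probe of the same gene lay near 3.

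**Figure D2:**
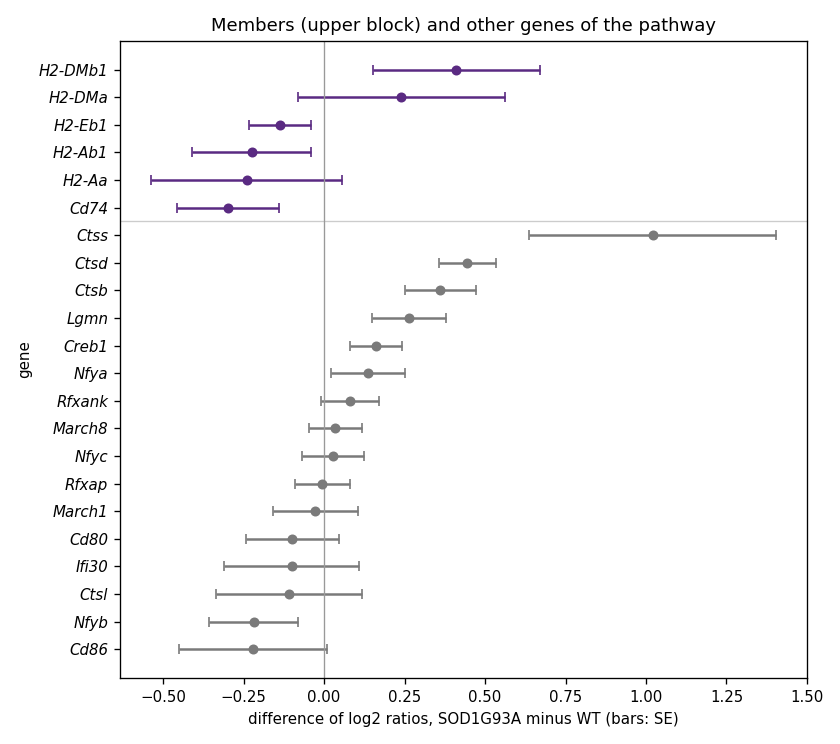
Difference of log2 ratios, SOD1G93A minus WT, with SE, for the 6 measured members (upper block, purple) and 16 other measured genes of the class II pathway (grey). The DM genes and the proteases Ctsb, Ctsd, Ctss and Lgmn lie right of 0. Cd74, the A and E chains and the protease Ctsl lie left of it, and 0 of these genes were called.

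In log2 ratio, 5 of the 6 members varied more within a genotype than most genes, and H2-Eb1 varied less than most. The nerve signal of H2-Eb1 taken alone was not even: its SD over arrays was 0.51, beside a median of 0.18 over all genes. The median SD within genotypes was 0.38 over the 6, beside 0.16 over all genes. H2-DMa (0.55), H2-Aa (0.51) and H2-DMb1 (0.44) had a larger SD than 97.7%, 97.1% and 95.5% of all genes. H2-Ab1 (0.31) and Cd74 (0.26) had a larger one than 87.5% and 79.7%.

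Across arrays, the deviations of Cd74 and the A and E chains from their own means are given beside those of the DM genes. Averaged over Cd74, H2-Aa, H2-Ab1 and H2-Eb1, the deviation was -0.46, -0.32, 0.24 and 0.08 on the SOD1G93A arrays, against 0.38, 0.05, -0.03 and 0.05 on the WT arrays. Averaged over the DM genes it was -0.08, 0.08, 0.56 and 0.09 on the SOD1G93A arrays, against -0.09, 0.64, -0.61 and -0.59 on the WT arrays. The DM average minus the other average was 0.38, 0.40, 0.32 and 0.009 on the SOD1G93A arrays, against -0.47, 0.59, -0.58 and -0.63 on the WT arrays. It was near 0 on SOD1G93A replicate 4 and highest on WT replicate 2. These averages were formed after the values were seen and were not tested.

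**Figure D3:**
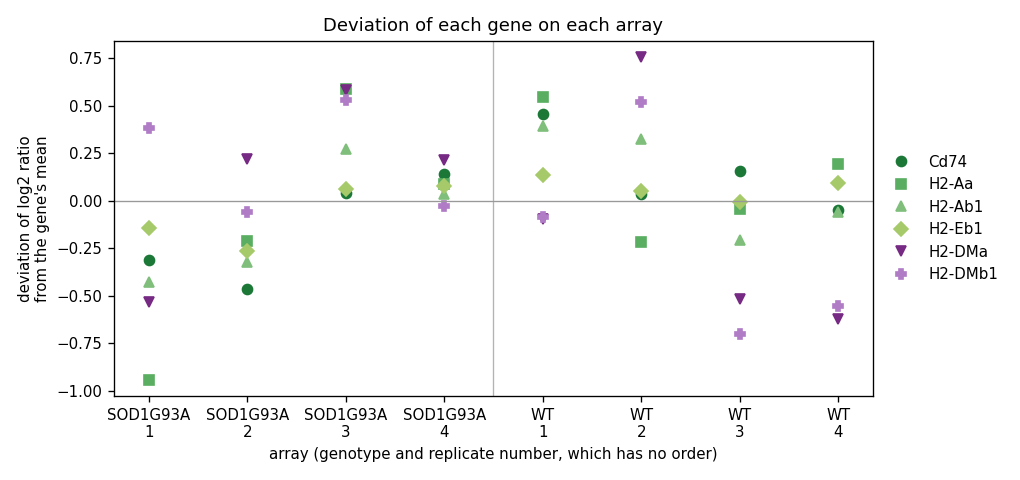
Deviation of each measured member from its mean over the 8 arrays (log2 ratio), by array, with Cd74 and the A and E chains in green and the DM genes in purple. The average of the green genes was lowest on SOD1G93A replicate 1 (-0.46) and highest on WT replicate 1 (0.38), though not every green gene follows it, and WT replicates 3 and 4 hold the DM genes between -0.70 and -0.52.

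All 15 pairs of members were correlated over the 8 arrays, with exact permutation tests adjusted over the 15 pairs. The 6 pairs among Cd74 and the A and E chains had a Pearson r of 0.67 to 0.88 and a Spearman rho of 0.55 to 0.74. The closest, Cd74 with H2-Eb1, had r = 0.88 (exact permutation p = 0.00367, adjusted 0.0551) and rho = 0.62 (exact permutation p = 0.115, adjusted 0.345). Each r was also taken without the 2 arrays farthest from the median of the pair's first gene, in the order of the opening list. These 6 pairs then had r of 0.49 to 0.71. With genotype means removed r was 0.65 to 0.82. Leaving out arrays by the second gene of a pair was not computed.

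H2-DMa with H2-DMb1, whose proteins form a dimer, had r = 0.70 (exact permutation p = 0.0628, adjusted 0.160) and rho = 0.67 (exact permutation p = 0.0831, adjusted 0.345). Without the 2 farthest arrays its r was 0.47. The 8 pairs between a DM gene and another member had r of -0.19 to 0.59 and rho of -0.26 to 0.48. Their r was -0.46 to 0.77 without the 2 farthest arrays and -0.06 to 0.77 with genotype means removed. Only the highest of them thus reached the values of the pairs above. H2-Ab1 with H2-DMb1 had r = 0.77 without the 2 farthest arrays and H2-Ab1 with H2-DMa had r = 0.66. In both pairs the arrays were chosen by H2-Ab1, and r may differ with that choice. Of the 15 pairs, 0 passed after adjustment, and 4 had an unadjusted p under 0.05 for r (exact permutation), all among Cd74 and the A and E chains. The share of other gene pairs with such a p on these arrays was not computed. The permutations also moved arrays across genotypes. The difference between these sets of pairs was not tested.

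Over the 8 arrays, the genes most like the average deviation of the 6 members were, among 15321 genes, the array's unnamed transcript NAP062373-1 (r = 0.93), Rin2 (0.93), Cpb1 (0.93), Glis2 (0.92) and Hic1 (0.92). Their differences, SOD1G93A minus WT, were 0.01, -0.02, -0.21, -0.06 and -0.13 on the log2 scale. These were the highest of many correlations over 8 arrays and carry no test.

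The pool channel also moved with the nerve channel for these genes. The labels describe the same pool for every array. After normalization, the H2-Eb1 Cy5 level lay between 9.62 and 10.9 on the log2 scale and followed its Cy3 level, between 12.2 and 13.8, with r = 0.98 over 8 arrays. H2-Ab1 had Cy5 levels of 9.45 to 10.6 and r = 0.97, and H2-DMb1 had levels of 8.37 to 8.99 and r = 0.95. H2-DMa had levels of 7.08 to 7.61 and r = 0.87, and Cd74 had levels of 8.61 to 8.93 and r = 0.57. H2-Aa had r = 0.69.

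The SD of Cy5 over arrays was 0.40 for H2-Eb1 and 0.37 for H2-Ab1, larger than in 99.8% and 99.7% of genes, beside a median of 0.07 over all genes. Among 568 other genes whose log2 ratio was over 2 in both genotypes, the median r between dyes was 0.50 and 6.69% had r over 0.9. Before normalization, background-subtracted Cy5 intensity of H2-Eb1 lay between 580.9 and 1669, with r = 0.99 to Cy3 on the log2 scale. No such r was computed over other genes before normalization, so this value has none beside it. Where Cy5 follows Cy3, the ratio is less spread than the nerve signal, whose SD over arrays was 0.51 for H2-Eb1 and 0.66 for H2-Ab1. The cause was not tested.

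**Figure D4:**
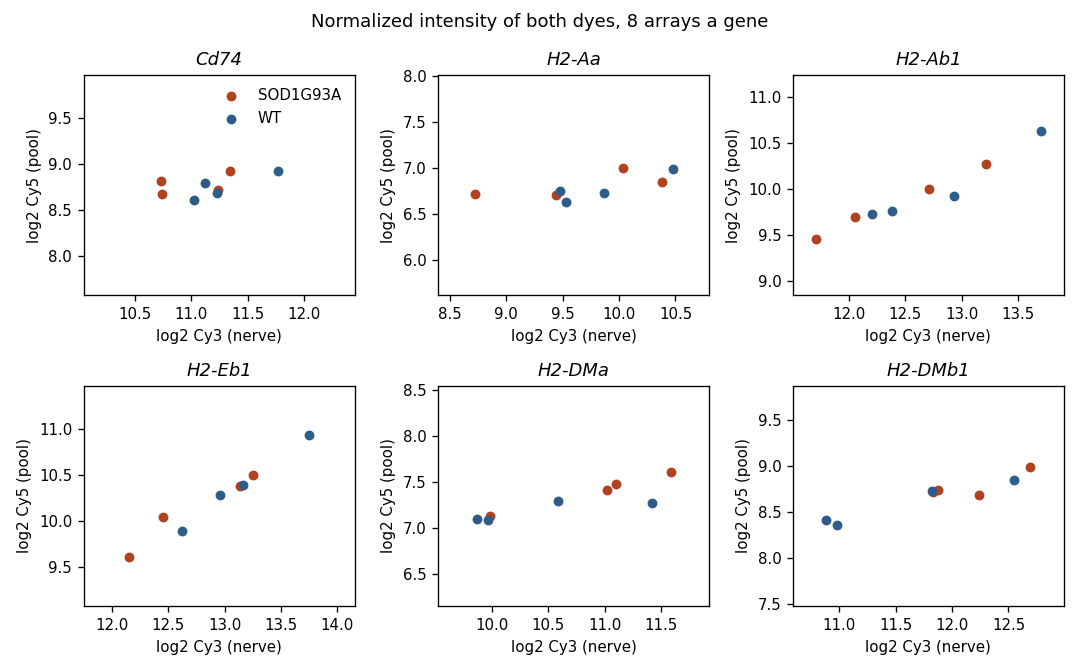
Normalized log2 intensity of the pool (Cy5, vertical) against nerve (Cy3, horizontal) for each measured member, 1 point an array, SOD1G93A in red and WT in blue, with equal axis spans in all panels. Points of H2-Ab1 and H2-Eb1 rise along a line (r = 0.97 and 0.98), while those of Cd74 are nearly flat.

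The rest of the class II pathway was described from a list of 24 further genes, of which 16 were measured. Of these, 9 had a higher and 7 a lower mean in SOD1G93A nerve, 0 were called, and the median difference was 0.03 on the log2 scale. The 3 genes with the smallest p encode endosomal proteases. Among other such proteases, Lgmn, next by p, differed by 0.265 ± 0.115 (SE, limma adjusted p = 0.433). Ctsl differed by -0.11 ± 0.23 (SE, limma adjusted p = 0.880). Ctsd, a lysosomal aspartic protease, had a log2 ratio of 0.83 ± 0.07 in SOD1G93A and 0.38 ± 0.14 in WT nerves, a difference of 0.45 ± 0.09 (SE, limma adjusted p = 0.106). Ctsb, a cysteine protease, had 1.75 ± 0.17 in SOD1G93A and 1.39 ± 0.16 in WT nerves, a difference of 0.36 ± 0.11 (SE, limma adjusted p = 0.277). Ctss, which cuts the invariant chain in antigen-presenting cells, had 0.59 ± 0.84 in SOD1G93A and -0.43 ± 0.42 in WT nerves, a difference of 1.02 ± 0.38 (SE, limma adjusted p = 0.361).

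The genes H2-Ob, H2-DMb2, H2-Eb2, H2-Ea-ps and Rfx5, the last a subunit of the X box factor, were not well above background on any array. H2-Oa and Cd40 were above it on no SOD1G93A array and on 1 WT array. The other X box subunits showed small differences, 0.08 ± 0.09 (SE) for Rfxank and -0.01 ± 0.09 (SE) for Rfxap.

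Interferon gamma is the classical inducer of Ciita, and 8 of 10 genes of its pathway were measured, 3 higher and 5 lower in SOD1G93A nerve with 0 called. Ifng itself was not well above background on any array. The feedback inhibitor Socs1 differed by 0.30 ± 0.10 (SE, limma adjusted p = 0.326) and the receptor chain Ifngr1 by -0.20 ± 0.07 (SE, limma adjusted p = 0.344). Irf2, a transcription factor of the same pathway, differed by -0.11 ± 0.08 (SE, limma adjusted p = 0.650).

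Class I presentation, which shows peptides made inside the cell, had 16 of 17 genes measured, 3 higher and 13 lower in SOD1G93A nerve with 0 called and a median difference of -0.11. The mean deviation of this list was -0.16, -0.09, 0.15 and -0.18 on the SOD1G93A arrays. On the WT arrays it was 0.45, 0.045, -0.07 and -0.14, so WT replicate 1 stood highest. Tapbp, which bridges class I to the peptide transporter, differed by -0.26 ± 0.10 (SE, limma adjusted p = 0.362). The immunoproteasome subunit Psmb9 differed by -0.37 ± 0.19 (SE, limma adjusted p = 0.509) and the transporter subunit Tap1 by -0.25 ± 0.14 (SE, limma adjusted p = 0.538).

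Markers of cells that can carry class II are given beside these values, and their part in the members' differences was not tested. Of 15 macrophage markers 14 were measured, 13 higher and 1 lower in SOD1G93A nerve with 0 called, and the median difference was 0.47. Trem2, a macrophage lipid receptor, had a log2 ratio of 1.99 ± 0.35 in SOD1G93A and 0.73 ± 0.28 in WT nerves (limma adjusted p = 0.0520). The mean deviation of the macrophage list was -0.44, 0.34, 0.43 and 0.64 on the SOD1G93A arrays, against -0.08, -0.20, -0.46 and -0.21 on the WT arrays. On SOD1G93A replicate 1, low for this list, H2-Aa and H2-Ab1 were at their lowest. On SOD1G93A replicate 2, high for it, Cd74 and H2-Eb1 were at their lowest, and on WT replicate 3, the lowest for it, Cd74 deviated by 0.16. The DM genes were low on WT replicate 3, H2-DMa at -0.52 and H2-DMb1 at -0.70, its lowest. On SOD1G93A replicate 1 H2-DMa deviated by -0.54 but H2-DMb1 by 0.38. On WT replicate 2, below 0 for the list, the DM average was 0.64, its highest.

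Of 12 dendritic cell markers 7 were measured, with 0 higher and 7 lower in SOD1G93A nerve and 0 called; the mean deviation ranged from -0.33 to 0.04 on SOD1G93A and -0.13 to 0.55 on WT arrays. Mgl2, a lectin of dendritic cells and macrophages, differed by -0.33 ± 0.11 (SE, limma adjusted p = 0.321). Clec9a, Xcr1 and Ccr7 were not well above background on any array. B cell markers had 2 of 7 measured, both lower, with a mean deviation of -0.65 to 0.17 on SOD1G93A and -0.02 to 0.29 on WT arrays. Cd22 differed by -0.73 ± 0.32 (SE, limma adjusted p = 0.433), and Ms4a1, Pax5 and Ighm were not well above background on any array.

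T cell markers had 2 of 6 measured, 1 higher and 1 lower, with a mean deviation of -0.13 to 0.21 on SOD1G93A and -0.04 to 0.04 on WT arrays. Cd3e differed by -0.20 ± 0.09 (SE, limma adjusted p = 0.420) and Cd4 by 0.17 ± 0.11 (SE, limma adjusted p = 0.577). The mean deviation thus averages genes that differ in opposite directions. Cd3d, Cd3g and Cd8a were not well above background on any array. The 3 markers of all leukocytes were lower, by a median of -0.04, ranging from -0.16 to 0.01 on SOD1G93A and -0.14 to 0.36 on WT arrays. Ptprc, which encodes CD45, differed by -0.35 ± 0.18 (SE, limma adjusted p = 0.489).

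Markers of Schwann cells and of tissues around the nerve also differed between arrays. The 7 Schwann markers all had a higher mean in SOD1G93A nerve, by a median of 0.13 with 0 called. Their mean deviation was 0.61, -0.08, -0.11 and -0.14 on SOD1G93A arrays, against -0.35, 0.17, -0.05 and -0.04 on WT arrays. Of the SOD1G93A arrays only replicate 1 was above 0. Skeletal muscle markers, 6 of 7 measured, were all lower with 0 called, and their mean deviation was -1.09 to -0.82 on SOD1G93A arrays, against 3.02, 2.19, -0.74 and -0.60 on WT arrays. Tnnt3, a troponin of fast muscle, differed by -1.62 ± 0.59 (SE, limma adjusted p = 0.349). WT replicates 1 and 2, high in muscle markers, were the WT arrays with the highest H2-Ab1, H2-DMa and H2-DMb1, while WT replicate 2 had the lowest H2-Aa of the WT arrays.

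All 4 measured adipocyte markers of 5 were lower, ranging from -1.49 to 0.20 on SOD1G93A and -0.46 to 1.17 on WT arrays, with Fabp4 at -1.36 ± 0.55 (SE, limma adjusted p = 0.389). All 6 endothelial markers were lower with 0 called, ranging from -0.51 to -0.11 on SOD1G93A and 0.05 to 0.52 on WT arrays. Robo4, an endothelial receptor, differed by -0.75 ± 0.13 (SE, limma adjusted p = 0.0763). WT replicate 1 was the highest array for the dendritic, leukocyte, muscle, adipocyte and endothelial lists. The pool showed its organs by their markers: over 4 heart genes the median log2 ratio was -3.58 in SOD1G93A and -3.52 in WT nerves. Alb, of liver, stood near -3.22 in SOD1G93A and -3.25 in WT nerves, and Cdh16, of kidney, near -4.94 in SOD1G93A and -5.05 in WT nerves.

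Across 22 other ways to process the arrays or choose among them, 0 calls were made for any member, and the lowest adjusted p of any was 0.321 (limma with array weights, H2-DMa). Cd74, H2-Ab1 and H2-Eb1 stayed below 0 and H2-DMa and H2-DMb1 above 0 in all 22, while H2-Aa changed sign in 3. The ranges were -0.39 to -0.14 for Cd74, -0.48 to 0.18 for H2-Aa, -0.38 to -0.02 for H2-Ab1 and -0.38 to -0.07 for H2-Eb1. They were 0.07 to 0.53 for H2-DMa and 0.25 to 0.65 for H2-DMb1. Most of these settings share all or most arrays, so they are not independent. Several refitted the same ratios of these genes, among them the replicate block, the filters on dim probes and the variance model. Those could not change a difference or its sign. The Agilent processed signals and the deposited series table gave the same differences as each other.

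**Figure D5:**
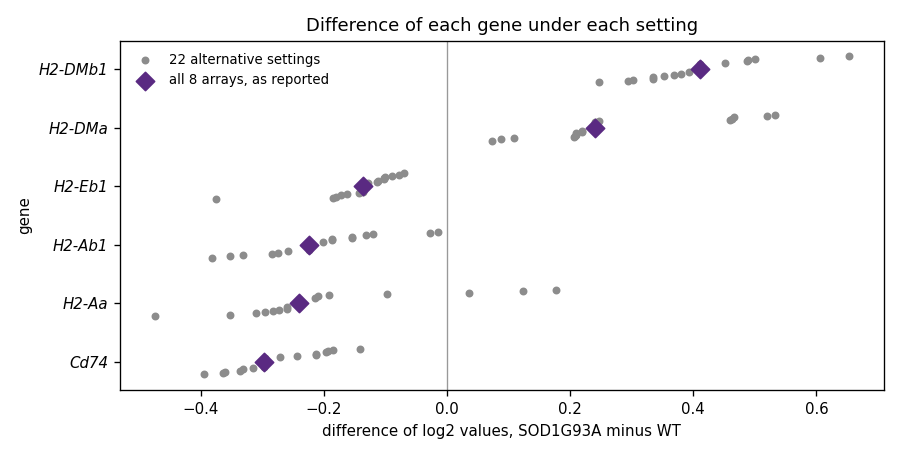
Difference of each measured member, SOD1G93A minus WT, under 22 alternative settings (grey points) and as reported from all 8 arrays (purple diamonds). H2-Aa is the gene whose points lie on both sides of 0, and the DM genes lie right of 0 throughout.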

How the data were processed

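Nerve RNA (Cy3) and a neonatal organ pool (Cy5) were measured on 8 arrays. The deposited scanner files hold linear spot and background intensity, written by Agilent Feature Extraction 11.5.1.1 per the file headers. Version 11.0.1.1, and limma with no role, appear per the submitters' processing notes. The deposited table of the series and the scanner files' own ratio, both log10 of Cy5 over Cy3, were the same on every spot. Other deposited values, flags and probe names, carry no scale.

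Here the mean intensity was corrected by normexp (offset 50) and loess within arrays, without scaling between arrays, and ratios were turned so that positive means more nerve signal. Probes with Cy3 well above background on 4 or more arrays were kept, and each gene was read by its brightest kept probe. Genotypes were compared with limma 3.58.1 (lmFit, eBayes, R 4.3.3, with version 1.17.8 of the data.table package), 2-sided, Benjamini-Hochberg adjusted over 15343 genes. The second H2-Ab1 probe was fitted among 19838 probes. The script was tested on simulated data. The number of arrays limits the precision.

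The members and lists were chosen with earlier results of these data known. Named besides members are the 3 genes with the smallest p per pathway list, 1 per marker list, markers not well above background, and the 5 genes most like the members. Some items that this rule names are not reported here. Lgmn, Ctsl, Rfxank, Rfxap, Cd4, Alb and Cdh16 were named after their values were seen. Same-numbered arrays had correlations of -0.16, 0.04, -0.11 and 0.10 between deviations. These show no pairing of the animals by replicate number, though so few correlations cannot exclude one. Alternatives covered background correction, normalization, channel, filter, probe choice, pairing, weights, variance model and left-out arrays.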

Additional observations from a re-analysis of the deposited data

How the results depend on the processing

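The count of member genes called stayed at 0 under all 22 alternatives, and the count of members above the pool in both genotypes stayed at 6 under all that could give it, which leave out the nerve channel alone and the replicate block. The median difference of the members was -0.18 as reported. It changed sign to 0.054 with array weights and to 0.075 with the arrays numbered 2 to 4. It kept its sign under the other settings, several of which could not change it, and ranged from -0.266 to -0.039 when each array was left out in turn. H2-Aa changed sign under array weights (0.12), without SOD1G93A replicate 1 and with the arrays numbered 2 to 4 (0.18), and ranged from -0.475 to 0.035 when each array was left out; the cause was not tested. The count over all genes, 25, was 7 with Agilent processed signals, 7 with the deposited series table, 1 with median centring, 16 without a filter on dim probes, 420 with array weights and 234 with the arrays numbered 2 to 4. With the replicate block, a pairing the data do not bear out, it was 1 over all genes and 0 among the members. Leaving out each array in turn gave 3 to 180. The highest was without SOD1G93A replicate 1 and the lowest without WT replicate 2, WT replicate 3 or SOD1G93A replicate 4; it was 4 without SOD1G93A replicate 3, 9 without SOD1G93A replicate 2 or WT replicate 1, and 16 without WT replicate 4. With 4 arrays a genotype, the 95% interval of the difference ran from -0.35 to 0.08 for H2-Eb1, the narrowest, and from -0.48 to 0.96 for H2-DMa, the widest. Ciita had only a dim probe rich in a simple repeat, so its level was not measured.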
